A study of Mus musculus with 2 samples.

Results

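Intermediate filament genes encode the strands of the cytoskeleton that differ most between cell types, and the 8 members of the family taken here are those known from progenitors, glia and neurons of the nervous system. Members were taken by symbol, and all 8 had 1 row each among the 33207 counted genes. *Nes* (nestin) and *Vim* (vimentin) are the filament genes of neural and neural crest progenitors, and *Gfap* is the filament gene of mature glia. *Ina* (alpha-internexin), *Prph* (peripherin) and the light, medium and heavy neurofilament genes *Nefl*, *Nefm* and *Nefh* build the filaments of axons, and *Nefh* is known as the late one of the 3 neurofilaments. A neuron leaving the progenitor pool is known to exchange the first kind of filament for the second, and the comparison asked how far that exchange had gone in cells marked by *Sox10*, by *Neurog1* and by *Isl1*.

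The cells came from mouse embryos carrying *Egr2-Cre* (*Krox20-Cre*) and *R26-Tomato*, taken at embryonic stage E11.5 or a day later (E12.5), with 1 library per stage. Each library pooled the embryos of 1 litter, as Tomato-positive cells sorted out of meninges, dorsal root ganglia and their roots. Tomato marks cells in which *Egr2* had been active and the cells that descend from them, and the labels call both samples boundary cap cells of the meninges. No library was repeated, so no test was possible: stage, litter and library cannot be told apart, and every 95% interval below covers counting error only. Filtering left 833 cells in the earlier library (median 11601 UMIs per cell) and 3496 in the later one (median 6140 UMIs), and 7 of the kept barcodes occurred in both.

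Cells were placed in 3 states by the unique molecular identifiers (UMIs, each 1 captured mRNA molecule) of 3 transcription factor genes. *Sox10* is the factor of neural crest and glial precursors, *Neurog1* that of cells entering sensory neurogenesis, and *Isl1* that of young peripheral neurons. The Sox10 state held *Sox10* without *Neurog1* or *Isl1* (343 cells, E11.5, and 1126 cells, E12.5). The Neurog1 state held *Neurog1* without *Isl1* (77 and 142 cells), and the Isl1 state held *Isl1* without *Sox10* (203 and 1337 cells). Of the Neurog1-state cells, 70 of 77 and 87 of 142 also had *Sox10*, so that this state differs from the Isl1 state in *Sox10* as well and shares it with the Sox10 state. Cells that had none of the 3 genes and carried UMIs of at least 3 mesenchymal, pericyte or myeloid markers (56 and 242 cells) were used as background cells, since these cell types should lack neuronal filament mRNA.

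*Tubb3* and *Fabp7*, which did not define the states, followed the names of the Sox10 and Isl1 states. Throughout, pairs of values give E11.5 first and E12.5 after it. *Tubb3*, the tubulin gene of neurons, stood at 4208 and 4527 UMIs per 1000000 UMIs of the set (CPM) in the Isl1 state against 87.2 and 88.3 in the Sox10 state and 90.7 and 283 in the Neurog1 state. *Fabp7*, a fatty acid binding protein gene of glial precursors, stood at 1754 and 3428 CPM in the Sox10 state against 151 and 257.5 in the Isl1 state. At E11.5 the Neurog1 state had 1691 CPM of *Fabp7*, near the Sox10 state. The neuron gene *Map2* did not separate the states at E11.5 (52.7 CPM, Sox10 state, and 47.2 CPM, Isl1 state, intervals overlapping). The other neuron genes checked were higher in the Isl1 state at E11.5, and the glia genes checked were lower. For the boundary cap label, *Prss56*, a boundary cap gene, was detected in 104 of 343 and 367 of 1126 Sox10-state cells and *Egr2* in 93 and 185 of them, and a cell without a UMI is not shown to lack the gene. Cycling cells, with at least 2 of 6 cell cycle genes, made up 83.7% and 53.1% of the Sox10 state, 84.4% and 57.75% of the Neurog1 state, and 30.5% and 13.5% of the Isl1 state. The E12.5 Sox10 state included 100 cells with 3 or more of 8 mesenchymal markers, whose summed level was 535 CPM there and 82.7 CPM in the Isl1 state. Of these markers *Twist1* was at 0 in the E12.5 Sox10 state.

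In the genome (GRCm39, GENCODE M39) *Nefl* lies at chr14:68321268-68326544 on the plus strand and *Nefm* at chr14:68320039-68362305 on the minus strand, so that their annotated spans overlap and 1152 exon bases are shared on opposite strands. *Nes* lies at chr3:87878385-87887758 and *Vim* at chr2:13578738-13587639, both on the plus strand. *Ina* lies at chr19:47003069-47013770 and *Prph* at chr15:98952872-98956862, on the plus strand. *Gfap* (chr11:102778159-102791738) and *Nefh* (chr11:4888740-4898130) are on the minus strand. *Ina* shares 526 exon bases with *Nt5c2* and *Nefh* shares 861 with *Ap1b1*, again on opposite strands, and whether counting used the strand is not given in the sources used here. Without it, reads of such pairs cannot be told apart.

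The 250 bases before the start of the Ensembl canonical transcript are shown for *Nes*, the progenitor gene that differed most between the states, and for *Nefl*, a neuronal gene with one of the largest ratios among the members. They are written 5′ to 3′ in lower case, with no capitals because none of the 4 motifs searched on both strands was found in them. Their positions in GRCm39 are chr3:87878150-87878399 (plus) and chr14:68321018-68321267 (plus).
Nes: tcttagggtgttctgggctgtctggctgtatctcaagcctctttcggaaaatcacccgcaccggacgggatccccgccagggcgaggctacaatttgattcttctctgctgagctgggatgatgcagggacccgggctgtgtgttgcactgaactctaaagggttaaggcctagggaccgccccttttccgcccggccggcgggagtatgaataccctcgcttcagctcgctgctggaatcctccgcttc
Nefl: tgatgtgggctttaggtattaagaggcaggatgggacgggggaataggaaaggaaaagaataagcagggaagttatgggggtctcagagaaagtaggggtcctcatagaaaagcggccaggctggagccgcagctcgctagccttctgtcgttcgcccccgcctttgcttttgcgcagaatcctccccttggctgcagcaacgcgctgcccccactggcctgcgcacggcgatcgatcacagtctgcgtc

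The letters CAGATG (an E-box of the kind that proneural factors bind) stood in 13.0% of 21770 such windows of protein-coding genes, TAATTA (a homeodomain core) in 5.18%, ACAAAG (a Sox-type core) in 15.9% and TATAAA in 11.9%. Neither printed window held any of the 4, and the windows of the other members are not described here. The *Nefl* window was 58.0% G and C and the *Nes* window 58.8%. A match, or none, describes these letters in these windows only.

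With the states as defined, the difference in filament type lay between the Neurog1 state, which leaves out *Isl1*-positive cells, and the Isl1 state. Hardly any lay between the Sox10 and Neurog1 states. The neuronal share, the part of all UMIs of the 8 members that came from *Ina*, *Prph*, *Nefl*, *Nefm* and *Nefh*, was 2.91% (95% interval 2.503 to 3.368) and 2.99% (2.713 to 3.285) in the Sox10 state. In the Neurog1 state it was 1.93% (1.28 to 2.80) and 1.78% (1.30 to 2.39). Background cells gave 1.85% (1.06 to 2.99) and 2.13% (1.56 to 2.84), so the share of the Neurog1 state was within the background range at both stages. The share also depends on *Vim*, which at E12.5 stood at 2311 CPM in the Neurog1 state and 1338 in background cells. Neuronal filament UMIs there were 44 among all 1007167 UMIs of the Neurog1 state and 45 among 1478691 of background cells. Neurog1-state cells with *Sox10* had 2.001% (1.32 to 2.90) and 1.66% (1.12 to 2.36), and those without it had 0 of 49 filament UMIs at E11.5 and 2.11% (1.16 to 3.52) at E12.5. In the Isl1 state the share was 50.3% (48.9 to 51.7) at E11.5 and 60.8% (60.3 to 61.3) at E12.5. In overlapping sets that keep every positive cell, the place of the difference was less sharp. All *Sox10*-positive cells had 5.26% and 8.27%, and all *Isl1*-positive cells 39.75% and 55.5%. All *Neurog1*-positive cells (281 and 644) lay between them, at 23.6% (22.5 to 24.75) and 27.1% (26.2 to 27.95).

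Within the Isl1 state the share was higher the fewer *Neurog1* UMIs a cell had. Cells with 5 or more *Neurog1* UMIs had a neuronal share of 16.65% (14.2 to 19.3) at E11.5 and 9.18% (6.19 to 13.0) at E12.5. With 2 to 4 UMIs it was 45.8% (43.1 to 48.6) and 19.8% (17.8 to 21.9), and with 1 UMI 56.6% (53.2 to 60.0) and 49.0% (47.5 to 50.5). Without *Neurog1* it reached 63.3% (61.2 to 65.3) and 65.9% (65.3 to 66.5). The order was the same in both libraries and neighbouring intervals did not overlap, although the steps lay at different *Neurog1* counts. Median depth differed little along this order, from 10322 to 11901 UMIs at E11.5 and from 6320 to 7397 UMIs at E12.5. The smallest group, E12.5 cells with 5 or more *Neurog1* UMIs, held 19 cells. Summed shares weigh filament-rich cells more. In cells with at least 5 filament UMIs, the E11.5 median share was 28.6% with *Neurog1* and 35.9% without. *Nefl* or *Nefm* was found in 62.6% and 62.5% of all E11.5 Isl1-state cells with and without *Neurog1*. At E12.5 the medians were 22.65% and 62.5%, and the detection 56.4% and 80.5%. UMIs of 3 or more of 8 glial genes were found in 20.3% of E11.5 cells without *Neurog1*, against at most 13.04% in the other groups.

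**Figure D1:**
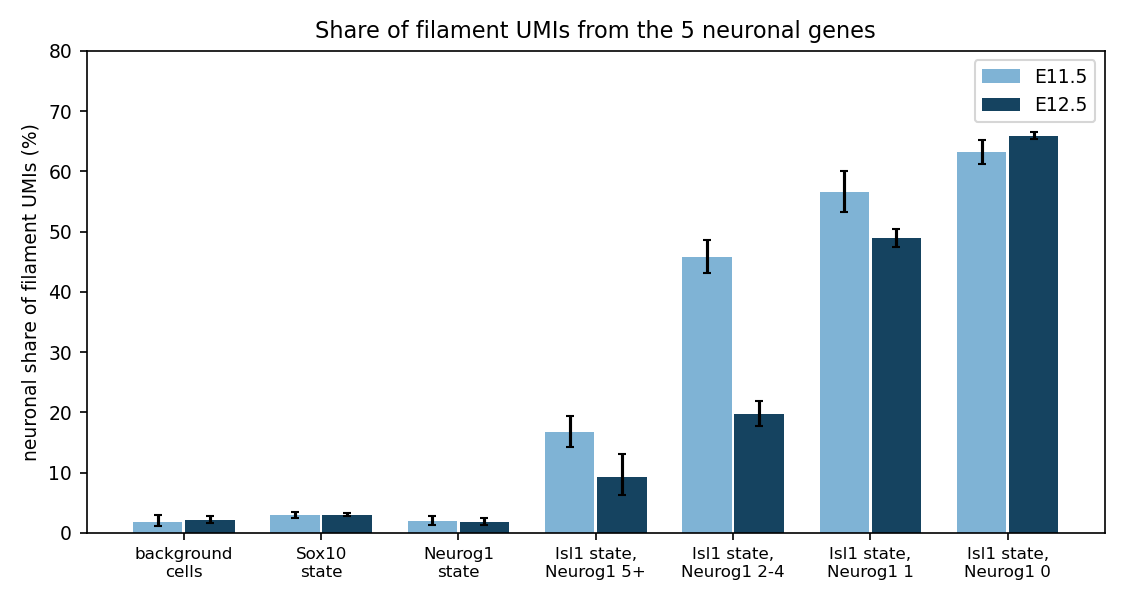
Percent of the UMIs of the 8 filament genes that came from the 5 neuronal ones, by set of cells (numbers on the axis are *Neurog1* UMIs per cell) and stage, 1 library each; bars are the summed share and whiskers its exact 95% binomial interval. The share stays near 2% to 3% through the Neurog1 state and is higher in the Isl1 state the fewer *Neurog1* UMIs the cells have, at 63.3% and 65.9% without any.

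Single cells of the Isl1 state spread over the whole range rather than around 1 value. Among cells with at least 5 filament UMIs the median neuronal share was 31.7% in 182 cells at E11.5 and 56.25% in 1164 cells at E12.5. At E11.5, 69 of these cells (37.9%) had more than 50% neuronal UMIs and 56 (30.8%) had none. At E12.5, 625 cells (53.7%) were over 50% and 235 (20.2%) had none. Of all Isl1-state cells without *Nefm*, 28.4% at E11.5 and 13.5% at E12.5 had UMIs of 3 or more of 8 glial genes. The part of such cells in the spread was not tested. Of the Sox10-state cells, 0 of 296 (E11.5) and 1 of 953 (E12.5) were over 50%.

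*Nes* was the progenitor filament that differed most between the states. At E11.5 it stood at 74.85 CPM (66.7 to 83.7) in the Sox10 state, 75.6 (59.4 to 94.7) in the Neurog1 state and 13.7 (9.40 to 19.4) in the Isl1 state. At E12.5 the levels were 70.9 (64.8 to 77.3), 95.3 (77.2 to 116) and 19.45 CPM (16.7 to 22.5). The Sox10 and Neurog1 states did not differ beyond counting error at E11.5 (ratio 1.01, 0.774 to 1.30), and at E12.5 the Neurog1 state was 1.345 times as high (1.07 to 1.68). Isl1-state cells that still had *Neurog1* were 5.20-fold below the Neurog1 state at E11.5 and 7.21-fold at E12.5. The presence of *Sox10* moved with this difference: cells with both *Sox10* and *Isl1* had 57.7 CPM (45.5 to 72.1) and 58.6 CPM (48.8 to 69.7), and at E12.5 Neurog1-state cells had 112.3 CPM with *Sox10* and 56.0 CPM (32.6 to 89.7) without it. After thinning every cell to 2000 UMIs, *Nes* was detected in 13.7% and 11.4% of Sox10-state cells, 15.6% and 12.2% of Neurog1-state cells, and 2.46% and 2.56% of Isl1-state cells. Background cells, which include pericyte-marked and mesenchymal-marked cells, also held *Nes*, at 64.0 and 58.2 CPM.

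*Vim* differed little. Its level was 1351 CPM in the Sox10 state, 1304 in the Neurog1 state and 1107 in the Isl1 state at E11.5, and 1827, 2311 and 1339 CPM at E12.5. The Isl1 state was lower than the Sox10 state by a factor of 1.22 (1.16 to 1.28) at E11.5 and 1.365 (1.33 to 1.40) at E12.5, beyond counting error but short of 2-fold. *Vim* was present in 98.5% and 97.6% of Isl1-state cells without thinning. *Vim* gave most of the progenitor filament UMIs, and without it the neuronal share in the Isl1 state was 98.7% and 99.0%, and in the Sox10 state 36.2% and 44.8%.

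*Gfap* was barely counted. It gave 2 UMIs in each of the 3 states at E11.5, and 8, 1 and 8 UMIs in the Sox10, Neurog1 and Isl1 states at E12.5. It was detected in at most 8 cells of any state, too few to order the states.

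*Nefm* and *Nefl* carried the neuronal side. *Nefm*, at 15.3 CPM (11.8 to 19.6) in the Sox10 state and 10.1 (4.83 to 18.5) in the Neurog1 state at E11.5, stood at 664 (632 to 698) in the Isl1 state. At E12.5 it stood at 28.6 (24.8 to 32.8), 22.8 (14.5 to 34.3) and 1220 CPM (1198 to 1243). *Nefl* stood at 10.7 (7.77 to 14.4), 7.05 (2.83 to 14.5) and 417 CPM (392 to 444) at E11.5, and at 15.4 (12.7 to 18.6), 8.94 (4.09 to 17.0) and 701 CPM (684 to 718) at E12.5. For both genes the Sox10 and Neurog1 states did not differ beyond counting error at either stage.

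Detection was also highest in the Isl1 state. In thinned cells *Nefm* was found in 3.21% and 5.50% of the Sox10 state, in 0 of 77 cells and 5.755% of the Neurog1 state (8 of 77 and 19 of 142 cells without thinning), and in 43.8% and 58.6% of the Isl1 state. *Nefl* followed at 2.33% and 2.48%, 2.60% and 1.44%, and 25.6% and 37.8%. *Nefl* was seldom found without its neighbour: of Isl1-state cells with *Nefl*, 84 of 89 (94.4%) and 684 of 715 (95.7%) also had *Nefm*. The reverse was less complete, at 84 of 122 (68.85%) and 684 of 945 (72.4%). Over all Isl1-state cells without thinning, *Nefm* was found in 60.1% and 70.7% and *Nefl* in 43.8% and 53.5%. Cells with *Nefl* were deeper, with medians of 13353 and 7371 UMIs against 11595 and 6475 in the whole state. The part of depth and of the 1152 shared exon bases in the overlap of the 2 genes was not tested. Within the Isl1 state, cells without *Neurog1* had 2.30 and 2.795 times the *Nefm* level of cells with it, and 4.06 and 3.49 times the *Nefl* level.

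The few *Nefl* and *Nefm* UMIs of the Sox10 state did not stand apart from background cells beyond counting error, except for *Nefm* at E12.5. Some of these intervals are wide, so the levels are not shown to be equal. Without thinning, 18.95% (14.9 to 23.5, median 12264 UMIs) and 18.2% (15.99 to 20.6, median 5924 UMIs) of Sox10-state cells had either gene. Of background cells, 8 of 56 (14.3%, median 8196 UMIs) and 36 of 242 (14.9%, median 5929 UMIs) did, with intervals that overlap those of the Sox10 state. By level, *Nefl* in the Sox10 state was 2.505 (0.653 to 21.3) and 1.63 times (0.932 to 3.08) that of background cells, and *Nefm* 0.652 times (0.341 to 1.37) at E11.5, which do not differ beyond counting error. At E12.5 *Nefm* was 1.69 times as high as in background cells (1.115 to 2.68). Thinned cells with *Nefm* were 5.50% in the Sox10 state against 0.437% of 229 background cells. That background share rests on very few cells of a random draw, since all background cells held 25 *Nefm* UMIs, so it adds little to the level ratio. Of Isl1-state cells, 62.6% and 73.0% had either gene.

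*Ina* was counted less than *Nefl* and *Nefm* in the Isl1 state, and its level there differed more between the stages than theirs. In the Isl1 state it stood at 48.1 CPM (39.6 to 57.9) at E11.5 and at 153 CPM (145 to 161) at E12.5. In the Sox10 state it stood at 14.8 (11.34 to 19.04) and 11.9 CPM (9.53 to 14.75), in the Neurog1 state at 10.1 and 10.9, and in background cells at 4.27 and 3.38. The Sox10 state was 3.53 times as high as background cells at E12.5 (1.45 to 11.1), and at E11.5 the interval reached below 1 (ratio 3.47, 0.921 to 29.3). Its detection in thinned Isl1-state cells was 5.91% and 18.4%. Of the *Ina*-positive Isl1-state cells, 89.6% and 94.8% also had *Nefm*, against 60.1% and 70.7% of all Isl1-state cells without thinning. The *Ina*-positive cells were deeper, with medians of 14324 and 7700 UMIs against 11595 and 6475 in the whole state.

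*Prph* was held by very few cells. The Isl1 state had 14 UMIs in 4 of 203 cells at E11.5 and 296 UMIs in 46 of 1337 cells at E12.5. At E12.5, 6 cells with 10 or more UMIs held 215 of the 296, and the highest had 73 and 50. All 6 also had *Nefm*, *Nefl* and *Ina*, 5 had *Th*, and 3 each had *Ntrk3*, *Runx1* and *Runx3*. The Sox10 state had 8 and 18 *Prph* UMIs and the Neurog1 state 0 and 1.

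*Nefh* was at or near 0. It gave 0 UMIs in every state at E11.5, which allows up to 1.29 CPM in the Isl1 state. At E12.5 it gave 9 UMIs in 7 of the 1337 Isl1-state cells, and 0 in the Sox10 and Neurog1 states. All 7 cells had *Nefl*, *Nefm* and *Vim*, and 5 had *Th*. Their median depth was 11178 UMIs against 6475 in the whole Isl1 state.

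**Figure D2:**
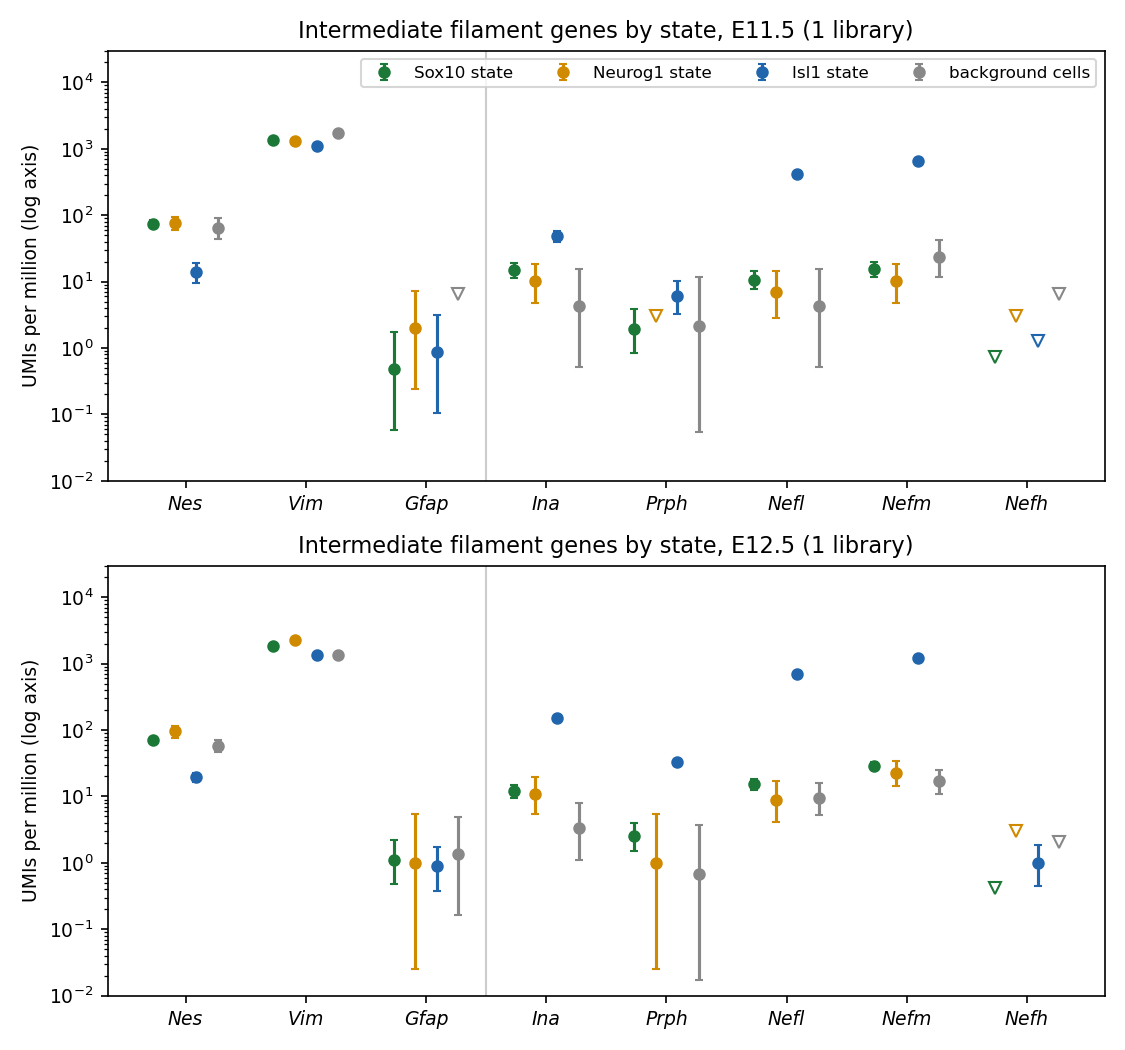
Level in CPM (UMIs per 1000000, log axis) of each of the 8 genes in the Sox10, Neurog1 and Isl1 states and in background cells, E11.5 above and E12.5 below, 1 library each; points are the summed level, whiskers the exact 95% Poisson interval, and open triangles the level that 3 UMIs would give where none was counted. *Nefl* and *Nefm* lie far above the other sets in the Isl1 state only, *Nes* lies below the other sets there, and *Vim* lies between 1107 and 2311 CPM throughout.

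The members were then set beside all genes. Between the Isl1 and Sox10 states at E11.5, 8.79% of 7239 genes with at least 100 UMIs were 2-fold or more higher in the Isl1 state and 14.7% were 2-fold or more lower. *Nefm* was 43.4-fold higher (33.7 to 56.75), *Nefl* 39.03-fold (28.85 to 54.1) and *Ina* 3.24-fold (2.35 to 4.51), while *Nes* was 5.447-fold lower (3.78 to 8.105). The minimum was reached by the *Nefm*, *Nefl* and *Ina* UMIs of the Isl1 state and the *Nes* UMIs of the Sox10 state alone, so this number of members past 2-fold supports nothing further. *Gfap*, *Prph* and *Nefh* were under the minimum.

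At E12.5, 11.7% of 10307 genes were 2-fold or more higher in the Isl1 state and 18.6% lower. *Nefl* was 45.4-fold higher (37.6 to 55.3) and *Nefm* 42.6-fold (37.1 to 49.2), and both had over 100 UMIs in each state. *Ina* was 12.8-fold higher (10.3 to 16.15), and *Prph* 12.95-fold (8.05 to 22.15), or 3.58-fold (2.13 to 6.35) without the 6 cells with 10 or more UMIs. Both had 100 UMIs through the Isl1 state alone, so that their passing 2-fold supports nothing further. *Nes* was 3.64-fold lower (3.06 to 4.35). *Gfap* and *Nefh* were under the minimum. At E12.5, where *Nefl* and *Nes* had over 100 UMIs in each state, their ratios lay at the 99.0th and 8.81st percentile of all genes compared, and that of *Vim* at the 32.9th.

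*Nefl*, *Nefm* and *Nes* differed less between the stages than between the states. In the Sox10 state 4.73% of 9107 genes were 2-fold or more higher at E12.5 and 0.856% lower. No member with enough UMIs reached 2-fold: *Nefm* was 1.87-fold higher (1.40 to 2.52), *Nefl* 1.44-fold (1.01 to 2.10), *Vim* 1.35-fold (1.31 to 1.40), *Nes* 0.947-fold (0.820 to 1.095) and *Ina* 0.805-fold (0.572 to 1.14), and the last 2 do not differ beyond counting error. Without the cells marked for another type *Nefm* was 2.06-fold higher (1.53 to 2.81).

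In the Isl1 state 4.25% of 8712 genes were 2-fold or more higher at E12.5 and 1.23% lower. *Ina* was 3.18-fold higher (2.62 to 3.89) and *Prph* 5.44-fold (3.19 to 10.1). *Prph* had 100 UMIs through E12.5 alone, and with every cell thinned to the same depth its ratio was 1.101 (0.496 to 2.88). *Nefm* was 1.84-fold higher (1.74 to 1.94), *Nefl* 1.68-fold (1.57 to 1.80), *Vim* 1.21-fold (1.16 to 1.26) and *Nes* 1.415-fold (0.967 to 2.13). The makeup of the Isl1 state moved with the stage: cells without *Neurog1* were 64 of 203 (E11.5) and 922 of 1337 (E12.5), and the part of this makeup in the ratios was not tested. Among Isl1-state cells without *Neurog1* alone, *Nefl* stood at 896 CPM (826 to 970) and 899 CPM (876 to 923), and *Ina* at 92.9 (71.4 to 119) and 191.5 CPM (181 to 203). The *Nefl* intervals of the stages overlap there, and those of *Ina* do not.

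**Figure D3:**
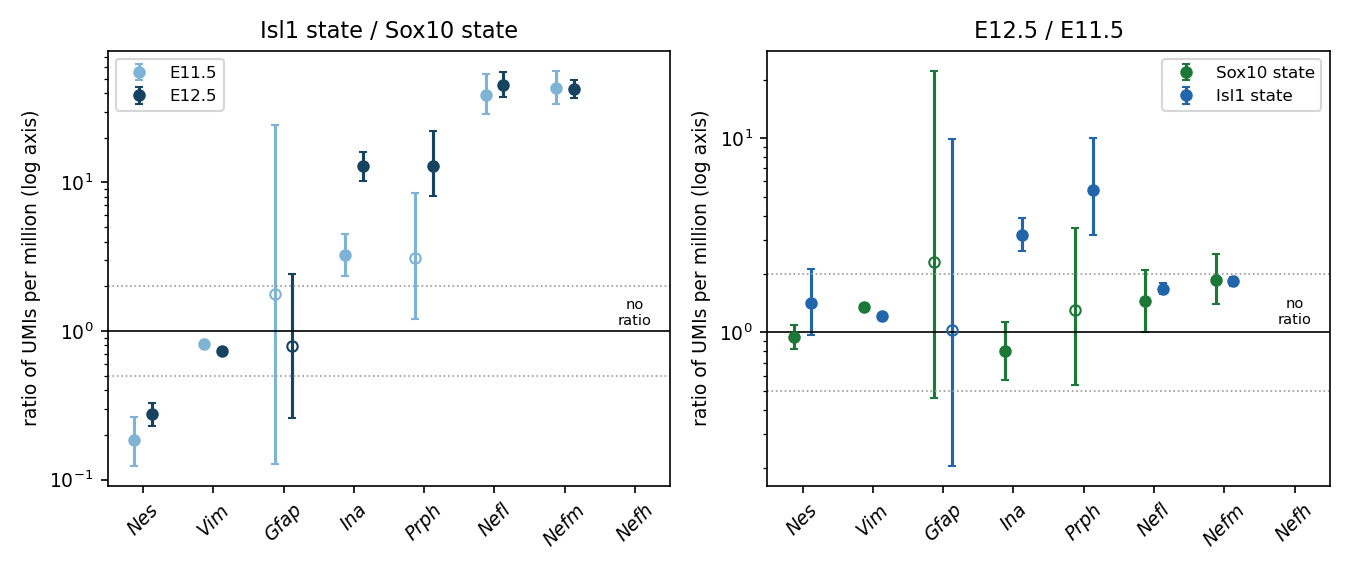
Ratios of CPM (log axes) for each member, Isl1 state over Sox10 state at each stage (left) and E12.5 over E11.5 within each state (right); whiskers are exact 95% intervals, open points are genes under 100 UMIs, dotted lines mark 2-fold, and *Nefh* has no ratio because a group had no UMI. *Nefl* and *Nefm* lie near 40-fold at both stages on the left, and only *Ina* and *Prph* in the Isl1 state pass the upper dotted line with enough UMIs on the right.

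Progenitor filaments were not lowest in the neurons with the most neurofilament. Isl1-state cells were grouped by their *Nefm* UMIs, and by level *Nes* was lowest in the middle. At E12.5 *Nes* stood at 23.6 CPM (17.7 to 30.8) in 392 cells without *Nefm*, at 7.59 (4.25 to 12.5) with 1 to 4 UMIs, at 9.18 (6.19 to 13.1) with 5 to 19, and at 50.8 CPM (40.1 to 63.5) in 144 cells with 20 or more. Against the cells with 1 to 19 *Nefm* UMIs this was 5.925-fold higher (4.05 to 8.76). At E11.5 the level in 24 cells with 20 or more was 12.6 CPM (4.10 to 29.5), and the ratio was 2.33 with an interval that reached below 1 (0.562 to 9.16).

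Depth differed along this grouping, with medians of 5408, 5660, 7245 and 10179 UMIs at E12.5. In cells thinned to 2000 UMIs, *Nes* was detected in 7.64% (3.875 to 13.3) of the group with 20 or more *Nefm* UMIs. It was detected in 2.15% (0.933 to 4.19), 2.15% (0.868 to 4.37) and 1.56% (0.629 to 3.19) of those with 0, 1 to 4 and 5 to 19. In thinned cells the highest group was thus clear only of the group with 5 to 19, and its interval overlapped those of the other groups. The intervals of the groups under 20 *Nefm* UMIs overlapped one another, so the dip in the middle was not resolved in thinned cells. The summed level of 8 glial genes was lower in each group than in the one before it (809, 325, 151 and 120 CPM). UMIs of 3 or more of them were found in 13.5% of the cells without *Nefm* and in 4.17% of the highest group. Without such cells the ratio was 6.39 (4.32 to 9.56).

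*Vim* followed the same course. It stood at 1510 CPM (1460 to 1561), 996 (952 to 1041), 1156 (1119 to 1193) and 1922 CPM (1853 to 1993) along the 4 groups at E12.5, and at 1251, 919, 901 and 1364 CPM at E11.5. *Ina* was higher in each group than in the one before it, at 13.55, 73.8, 169.5 and 431 CPM at E12.5. *Prph* stood at 181 CPM (160 to 204) in the highest group, where 20.1% of cells had it, against 5.20 CPM or less in the others. All 6 cells with 10 or more *Prph* UMIs were in that group, which had 41.8 CPM (31.8 to 53.9) without them. The *Nefm* counts that define these groups are not a result.

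**Figure D4:**
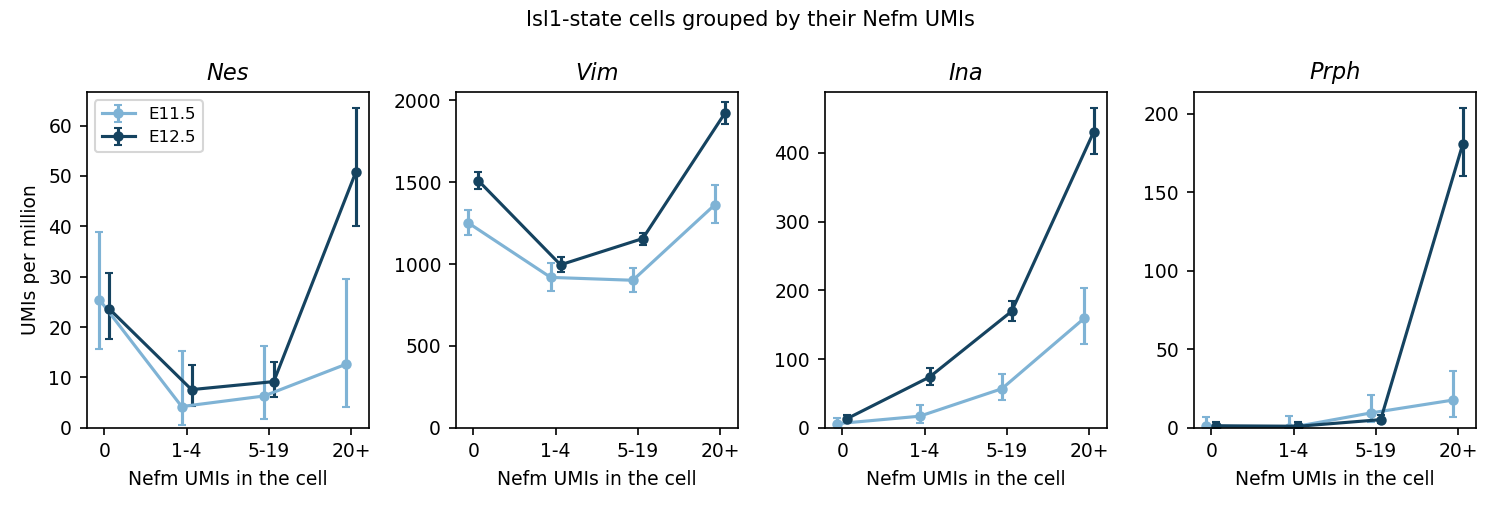
Level (CPM) of *Nes*, *Vim*, *Ina* and *Prph* in Isl1-state cells grouped by the number of *Nefm* UMIs in the cell, at each stage; points are summed levels and whiskers exact 95% Poisson intervals. *Nes* and *Vim* dip in the middle groups and are highest at E12.5 in cells with 20 or more *Nefm* UMIs, while *Ina* is higher in each group than in the one before it and *Prph* is highest in the last group.

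Isl1-state cells with *Th*, *Runx1* or *Runx3* were higher in *Nefm* and *Nes* at E12.5 than those without. At E12.5 the 84 Isl1-state cells with *Th*, which encodes the rate-limiting enzyme of catecholamine synthesis, had 3729 CPM of *Nefm* (3601 to 3861) against 958 in the 1253 cells without it. Their *Nes* was 58.4 CPM (43.3 to 77.0) against 15.4 (12.8 to 18.3), and their *Prph* 240.5 CPM (209 to 276) against 11.0. The 37 cells with *Runx1*, a factor of pain-sensing neurons, had 4345 CPM of *Nefm* and 58.65 of *Nes*. The 24 cells with *Runx3*, a factor of proprioceptive neurons, had 3860 CPM of *Nefm* and 689 of *Prph* (594 to 796). The *Prph* levels rested largely on the 6 cells with 10 or more *Prph* UMIs, and without them stood at 36.4 CPM with *Th* against 6.48 without it, and at 123 CPM (80.4 to 180) with *Runx3* against 6.30. These groups overlap one another and were deeper than the rest, with medians of 10139 to 10980 UMIs against 6371 to 6455.

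*Ntrk3*, the receptor gene for neurotrophin 3, went with more *Nefm* at both stages. The 123 E12.5 cells with it had 1742 CPM of *Nefm* (1659 to 1827) against 1159 (1135 to 1182) in the 1214 without it. Their 170 CPM of *Prph* against 16.4 came from 5 cells, 3 of them among the 6 richest, and without those 6 the levels were 3.34 CPM (0.689 to 9.76) against 9.69 (7.66 to 12.1). *Nes* and *Vim* did not separate them (26.1 against 18.7 CPM and 1310 against 1342 CPM, intervals overlapping). At E11.5 the 44 cells with *Ntrk3* had 1582 CPM of *Nefm* and 1192 of *Nefl*, against 353 and 155 in the 159 without it. Cells with *Ntrk2* were 6 and 7, and are not described further.

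**Figure D5:**
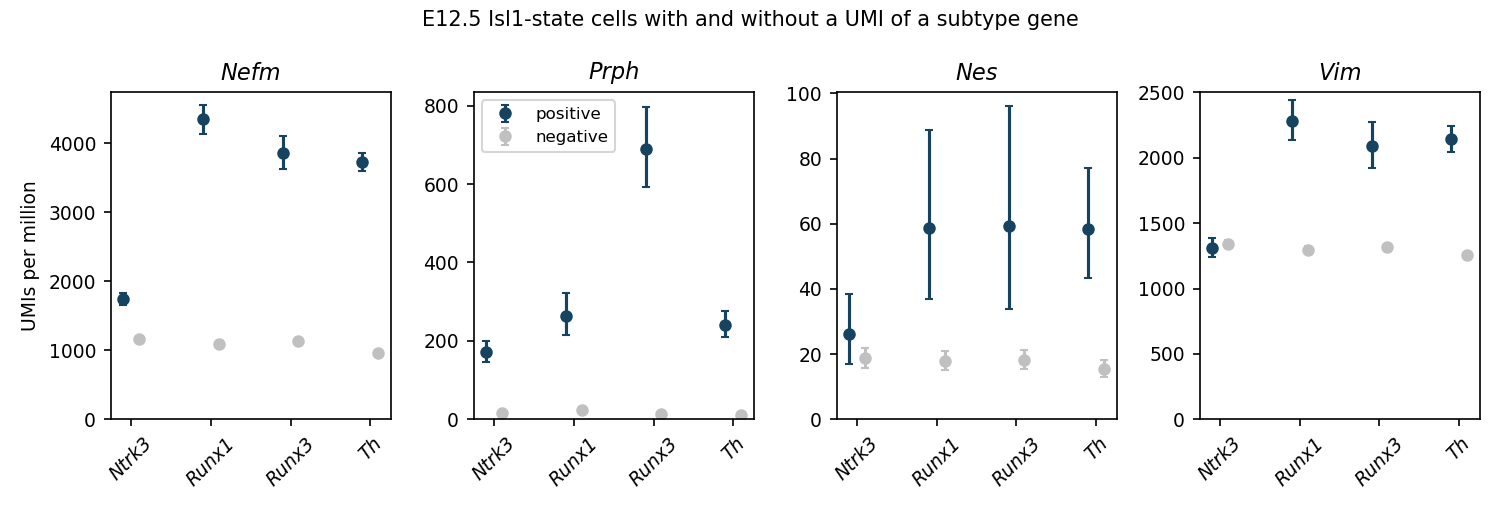
Level (CPM) of *Nefm*, *Prph*, *Nes* and *Vim* in E12.5 Isl1-state cells with (dark) and without (grey) a UMI of each subtype gene; points are summed levels and whiskers exact 95% Poisson intervals, and the groups overlap. *Runx1*-, *Runx3*- and *Th*-positive cells are higher in all 4 genes, and *Ntrk3*-positive cells in *Nefm* and *Prph*; the *Prph* levels rest largely on 6 cells, and without them *Ntrk3*-positive cells are not higher in *Prph* (3.34 against 9.69 CPM).

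In the Sox10 state *Nes* was lower where the boundary cap gene *Prss56* was detected. It stood at 58.95 CPM (47.15 to 72.8) in *Prss56*-positive and 83.6 (73.0 to 95.3) in *Prss56*-negative cells at E11.5, and at 48.4 (39.8 to 58.3) and 81.5 CPM (73.7 to 90.0) at E12.5. *Vim* was lower in the positive cells at E12.5 (1490 against 1987 CPM) and overlapped at E11.5 (1324 against 1366 CPM). *Hes5*, a Notch target gene, went with more *Nes* at E12.5 (109 CPM, 88.0 to 133, against 65.6, 59.4 to 72.3), and at E11.5 the values were 75.5 and 74.8 CPM. For *Egr2*, *Itga4*, *Sox8*, *Gata2* and the cycling cells the *Nes* intervals of the positive and negative cells overlapped at both stages.

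Vimentin and neurofilament mRNA shared cells. *Vim* or *Nes* was found in 99.0% and 97.6% of all Isl1-state cells, so the overlap was near that share and supports nothing further. Of Isl1-state cells with *Nefl* or *Nefm*, 126 of 127 (E11.5) and 955 of 976 (E12.5) also had *Vim* or *Nes*. *Nes* itself was found in 7.09% (3.29 to 13.0) and 9.53% (7.76 to 11.55) of them, against 17.1% (9.435 to 27.5) and 10.25% (7.32 to 13.85) of Isl1-state cells without *Nefl* and *Nefm*, intervals overlapping. In the Sox10 state *Nes* was found in 47.7% and 37.1% of the cells with *Nefl* or *Nefm* and in 50.7% and 30.8% of those without, intervals overlapping at both stages.

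Beyond the members, a list of 19 other genes of intermediate filaments and of the proteins that bind them was counted. At E11.5, 5 had enough UMIs in the comparison of Isl1 and Sox10 states, 0 were 2-fold or more higher and 1 was lower (of all genes compared 8.79% and 14.7%), with a median ratio of 0.682 against 0.921 for all genes. The lower gene was *Lmna*, the A-type lamin of the nuclear envelope (18.04 against 52.25 CPM), which had 100 UMIs through the Sox10 state alone. At E12.5, 8 had enough UMIs, 2 were higher and 4 lower (of all genes 11.7% and 18.6%), with a median of 0.635 against 0.929. The higher genes were *Synm*, a partner filament of vimentin (9.83 against 4.35 CPM), and *Macf1*, a linker of microtubules and actin (106 against 49.8 CPM). The lower genes were *Lmna* (26.85 against 132 CPM), *Lmnb1* (127 against 265), *Plec* (2.87 against 12.2) and *Dst* (167 against 432), the last 2 encoding cross-linkers of filaments. Between stages 2 of 7 were higher at E12.5 in the Sox10 state, *Lmna* (2.53-fold) and *Dst* (2.86-fold), and 0 of 6 in the Isl1 state (of all genes 4.73% and 4.25%). At an E12.5 sum of 535 CPM the mesenchymal markers were also higher there than at E11.5 (224 CPM), and their part in the *Lmna* and *Dst* values was not tested.

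The genes whose level over 14 sets of cells (7 sets in each library) was most like that of a member were searched among 8451 genes, with Pearson's r of log2(CPM + 1) as a description only, since the sets share libraries and depth. *Nefm* was closest to *Stmn2* (r = 0.987), *Rtn1* (0.987) and *Rab3a* (0.9835), and *Nefl* to *Gng3* (0.9775), *Fmn1* (0.968) and *Stmn2* (0.966). *Stmn2* encodes a tubulin-binding protein of growing axons and *Rab3a* a protein of synaptic vesicles. *Ina* was closest to *Rab7* (0.970), *Stmn3* (0.958) and *Dlst* (0.957). *Nes* was closest to *Cdk6* (0.9497), *Gpc4* (0.945) and *Art3* (0.942), and *Vim* to *Steep1* (0.921), *Cd9* (0.914) and *Selenot* (0.899). *Gfap*, *Prph* and *Nefh* had too few UMIs in a library.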

How the data were processed

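The authors made the deposited counts with Cell Ranger (7.0 per the labels, 7.0.1 per the file headers) on mm39, from 10x 3′ libraries. The values are raw UMI counts per gene and barcode, not normalized, with no filter on cells beyond barcode calling, and whether intronic reads were counted is not given in the sources used here. The *Prss56-Cre* library was not analysed here.

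Following the study's methods, cells with over 10% mitochondrial UMIs (179 in the E11.5 and 66 in the E12.5 library), under 2000 or under 1000 UMIs by library (412 and 133) or a Scrublet score of 0.2 or more (7 and 67, run in scanpy 1.11.5) were removed, leaving 9541971 and 22456846 UMIs. States used 1 UMI as positive and 0 as negative. CPM is a gene's UMIs per 1000000 UMIs of the set. UMIs count captured mRNA ends, so no length correction was made. CPM intervals are exact Poisson, shares exact Clopper-Pearson and ratios exact conditional binomial (scipy 1.17.1), at 95%, for counting error only. The alternatives (other cell filters, states from 2 UMIs, thinning, other minimums and folds) are given in the closing section. A count of 0 is given the limit of 3 counts. Thinning drew each cell to 2000 UMIs, which left out 36, 3 and 46 E12.5 cells of the Sox10, Neurog1 and Isl1 states. Genes entered a ratio with 100 UMIs over both sets. The ratio step was checked on made counts of known fold.

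The named genes were all 8 members, a list of 19 other filament-system genes, neuron and glia check genes, and the 3 genes most like each member. Members and lists were chosen with earlier results of these data known. Some further items are not reported here.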

Additional observations from a re-analysis of the deposited data

How the results depend on the processing

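With 1 library per stage no replicate could be left out, so each alternative was judged by whether its value left the 95% counting interval of the reported one. Without *Vim* the neuronal share was 36.2%, 26.0% and 98.7% in the Sox10, Neurog1 and Isl1 states at E11.5 and 44.8%, 31.2% and 99.0% at E12.5. With cells weighted equally the Isl1 state gave 34.1% and 46.7%. With states and filament UMIs from thinned cells the Sox10 state gave 4.38% at E11.5 and the Isl1 state 57.3% at E12.5. The E12.5 Isl1 state gave 61.8% with at least 5000 UMIs per cell and 65.15% with 2 UMIs of a state gene. The other shares of the 3 states kept within their interval. Finer sets were the Isl1 state with and without *Neurog1* and the cells with *Sox10* and *Isl1*. Of their 6 shares, 6 left their interval with cells weighted equally, 5 with thinned cells and 5 with 2 UMIs of a state gene. Of 48 shares of cells with a member, 34 left it at 2 UMIs for a positive cell and 32 without thinning. With thinning to 1000 UMIs 28 left it, and with a second random draw 4. Co-detection of progenitor and neuronal filaments in thinned cells was 4.08%, 1.30% and 36.95% in the Sox10, Neurog1 and Isl1 states at E11.5 and 7.34%, 7.19% and 54.45% at E12.5, against 18.95%, 18.2%, 62.1%, 18.2%, 16.9% and 71.4% unthinned.

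The numbers of genes 2-fold or more higher and lower in the Isl1 state were 636 and 1064 at E11.5 and 1206 and 1922 at E12.5. At 1.5-fold they were 1107 and 1793, and 1967 and 2911. At 4-fold they were 285 and 384, and 597 and 785. With a minimum of 30 UMIs the E11.5 numbers were 1118 and 1783. Between stages 431 and 78 genes in the Sox10 state and 370 and 107 in the Isl1 state became 173 and 41, and 165 and 46, with thinned cells, where fewer genes reach the minimum. Of 12 ratios of members between stages 8 left their interval with thinned cells, among them *Nefm* in the Isl1 state (1.53 against 1.84). Of 48 CPM values of members, 48 stayed within their interval without the doublet filter, 48 without cells marked for another type, 44 with at least 5000 UMIs and 36 with 2 UMIs of a state gene. Alternatives for *Nes* in *Nefm*-rich cells and for *Prph* without its 6 richest cells (given beside the *Prph* levels above) were added after seeing the data. The *Nes* ratio at E12.5 ranged from 5.32 to 7.53, and at E11.5 it turned to 0.929 with 2 UMIs of *Isl1*, with an interval of 0.0177 to 11.6.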

Other observations

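Cells with both *Sox10* and *Isl1*, 104 at E11.5 and 286 at E12.5, lay between the Sox10 and Isl1 states in neuronal share, at median depths of 13002 and 6869 UMIs. Their neuronal share was 13.9% (12.5 to 15.45) and 24.3% (23.1 to 25.4), but most single cells had no neuronal UMI. Of cells with at least 5 filament UMIs, 60 of 93 and 146 of 267 had none, and 9 and 36 were over 50%. *Nes* stood at 57.7 and 58.6 CPM there, above the Isl1 state. Where 2 UMIs of each gene were required, 26 and 27 cells were left and the share was 1.78% (0.858 to 3.25) and 24.2% (20.8 to 27.8). Without the doublet filter it was 14.6% and 26.15%.

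The mix of neuronal filaments differed between states. In the Sox10 state *Ina* and *Nefm* gave 61 and 63 UMIs at E11.5 and 85 and 204 at E12.5, while the Isl1 state gave 112 and 1547, and 1384 and 11043. Background cells gave 2 and 11, and 5 and 25.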
